A study of Homo sapiens with 4 samples.

Results

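The genes described here build the centromere and kinetochore, operate the spindle assembly checkpoint and form the chromosomal passenger complex. They are 45 named genes, read by every probe set whose single annotated symbol is one of them, which gave 83 of the 54613 non-control probe sets and all 45 genes among the 19775 on the array. The RNA came from HCT116, a long-established line of human colon carcinoma cells. A lipid reagent carried either control siRNA or TET1 siRNA into the cells, and each treatment has 2 arrays. TET1 is an enzyme that converts methylated cytosines to oxidised forms, and the study asked which genes it regulates in this cancer. The series describes the samples as biologically duplicated, no genotype change or drug is given for either group, and the labels name 1 TET1 siRNA group, so an effect of losing TET1 and an effect of the siRNA itself cannot be told apart.

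The centromere is the part of a chromosome where nucleosomes carry the histone variant CENP-A. On it sits the constitutive centromere-associated network (CCAN), a layer of CENP proteins that stays through the cell cycle and that recruits the MIS12 and NDC80 complexes, whose outer end binds spindle microtubules. Kinetochores without microtubules recruit checkpoint kinases and MAD and BUB proteins, which hold back the anaphase-promoting complex, and the chromosomal passenger complex with the kinase Aurora B destabilises wrong attachments. Many of these genes are transcribed mainly in G2 and mitosis. The arrays read whole cultures, in which fewer cells in G2 or mitosis and less of a transcript per cell cannot be told apart.

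Signals are in arbitrary linear units, scaled by the authors to the same trimmed mean on each array (100.01), and log2 differences are TET1 siRNA minus control siRNA on the log2(signal + 16) scale. TET1 itself read 58.1 and 59.6 with control siRNA and 14.6 and 15.0 after TET1 siRNA, a log2 difference of -1.28 (SE 0.20, limma adjusted p = 9.69e-04). The size depends on the pseudocount, at -1.92 with 1 and -0.64 with 64, and the signal left lay close to the filter on dim probe sets (13.1). Median signals ran from 13.9 to 15.5 over the 4 arrays, and the ratio of 3' to 5' signal was 0.846 to 0.884 for GAPDH and 1.19 to 1.28 for beta-actin. Of 8 colorectal epithelial markers 6 lay above the filter on dim probe sets, with EPCAM, KRT8, KRT18 and KRT19 bright on every array. VIL1 lay only just above it, at 10 and 18.9 with control siRNA and 16.5 and 15.9 after TET1 siRNA. The differentiation markers CDX2 and LGALS4 were below it. Summed marker signals were 312.4 to 491.6 for fibroblast genes, most of it from COL1A1, 24.3 to 47.9 for endothelial, 28.4 to 59.4 for lymphocyte and 28.2 to 46 for myeloid genes. Beside COL1A1, the highest endothelial and lymphocyte marker means were 17.6 and 15.1, and 0 of 4 myeloid markers lay above the filter. Of the epithelial markers CDH1 fell (-1.16) and KRT8 rose (0.32), COL1A1 rose by 0.47, and the part of any of these in the results was not tested.

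After TET1 siRNA a large minority of the centromere, kinetochore and checkpoint genes fell, 1 rose, and the others did not pass. By its brightest probe set each of the 45 genes lay above the filter and was tested. Of them 20 fell, 1 rose and 24 did not pass at a limma adjusted p of 0.05. Among all 12389 genes tested 10.6% fell and 11.2% rose. The share of the 45 that fell was 44.4%. The median log2 difference was -0.32 over the 45 genes and 0.01 over all genes, and 38 of the 45 differences were negative. By rank, 19 of the 45 were among the lowest 10% of all genes, and 26 among the lowest 25%. In 30 of the 45 both TET1 siRNA arrays lay under both control arrays, and in 3 they lay over both, against 28.2% and 30.9% of all genes.

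Most of the falls were modest. The signal left after TET1 siRNA ran from 37.0% of control for CENPH to 121% for NSL1, and 7 of the 20 falls reached 1.5-fold on the log2 scale, a size met by 4.33% of all genes. The median of the 20 falls was -0.55 and the smallest was that of CENPF (-0.32). Replicate spread was not even: TET1 siRNA replicate 1 read lower than replicate 2 in 34 of the 45 genes (75.6%), against 49.9% of all genes, while control replicate 1 read lower than control replicate 2 in 21. Without TET1 siRNA replicate 1 the count of falls was 11 of 45 (24.4%), beside 7.16% of all genes, and the median difference was -0.30; CENPA, CENPU, HJURP, NDC80, SKA1, CENPF, ZWILCH, SPDL1 and INCENP were the calls lost. Leaving out TET1 siRNA replicate 2 lost SKA1, SPDL1 and INCENP, control replicate 1 lost CENPA, SKA1, CENPF and INCENP, and control replicate 2 lost HJURP, NDC80, SKA1, CENPF, SPDL1 and INCENP, all with the direction kept. Averaging all probe sets of a gene ended the calls of CENPF, SPDL1 (-0.04), BUB1 (-0.14) and AURKB (-0.25). That mean takes in probe sets below the filter, which all of these genes have, and their part in the lost calls was not tested. The CENPF difference was -0.34 as a mean, beside -0.32. BUB1 also has a dim probe set above the filter, at 0.40. The only other probe set of SPDL1 read 0.6 to 6, and that of AURKB 0.8 to 2. Without variance shrinkage between genes, which leaves 2 residual degrees of freedom, limma called 0 of the 45 (20 lower and 2 higher at an unadjusted p of 0.05).

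**Figure D1:**
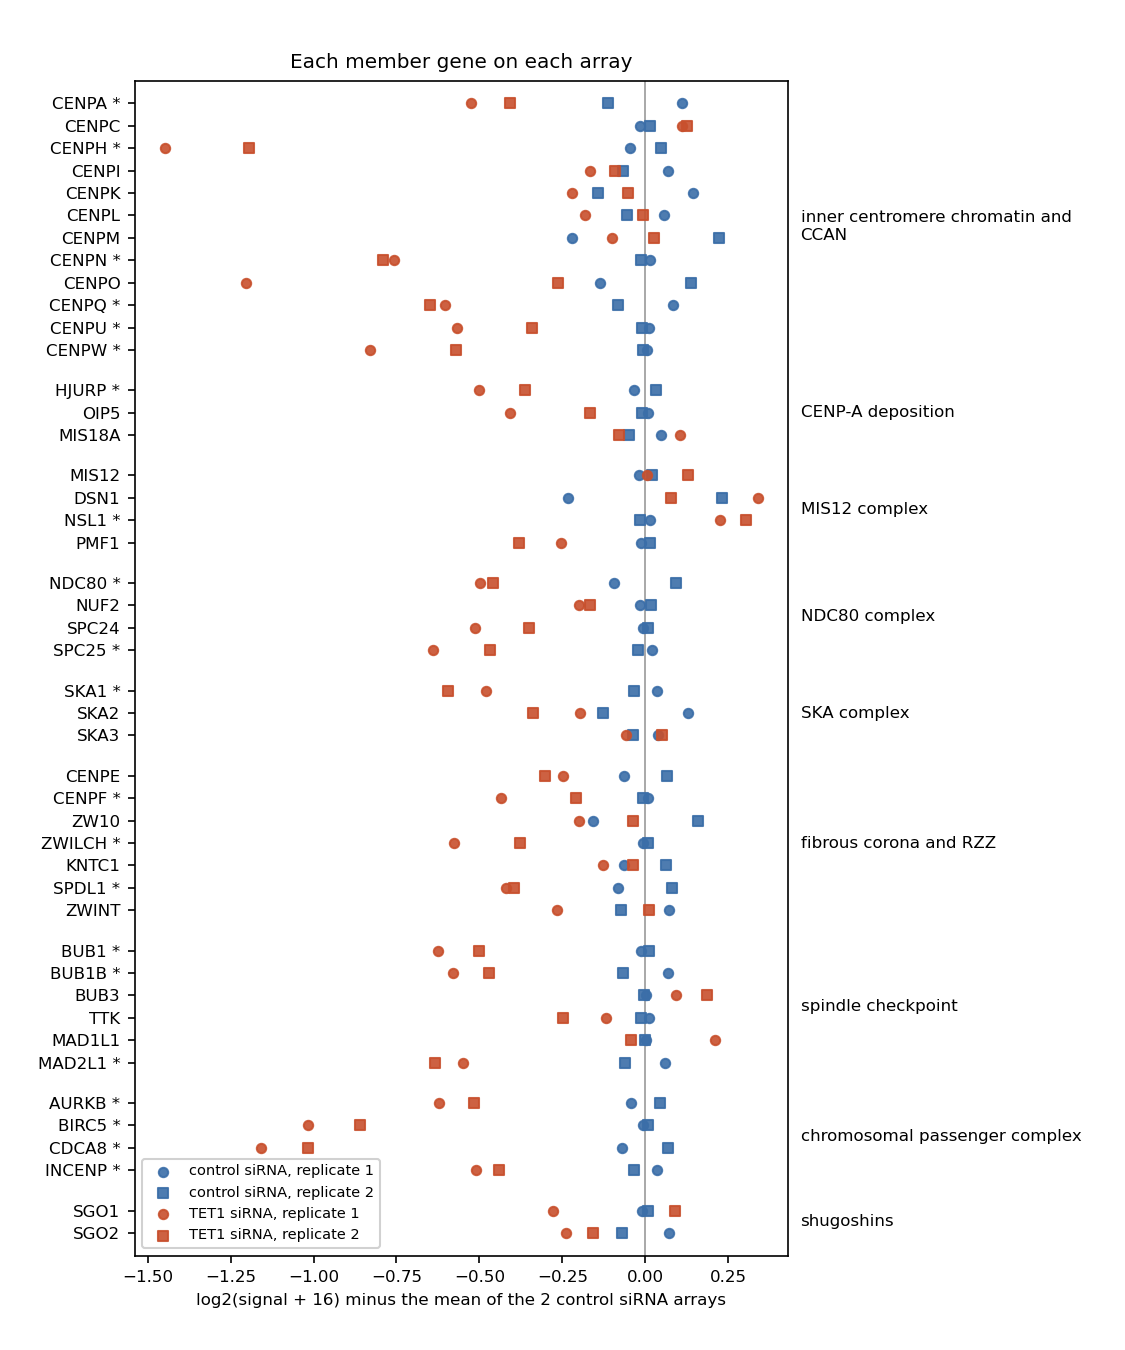
Log2(signal + 16) of each of the 45 genes on each array, minus the mean of the 2 control siRNA arrays (horizontal axis, log2 units), by complex; blue marks control siRNA and orange-red TET1 siRNA, circles replicate 1 and squares replicate 2, and an asterisk marks genes past limma's adjusted p of 0.05. Both CENPH points after TET1 siRNA, 1 CENPO point and those of CDCA8 lie far to the left, the CENPO replicates are far from each other, and in 30 genes both TET1 siRNA points are left of both blue points.

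Because many of these genes are known targets of shared cell cycle factors, their promoters were read from RefSeq (GRCh38.p14), as windows of 250 bases before to 50 after the transcription start. The table matched 37 of the 45 genes by symbol; BIRC5, BUB3, CENPH, CENPL, CENPM, KNTC1, MIS18A and TTK had no entry. Motifs were searched on both strands as CCAAT (the box bound by NF-Y), as TTTGAA or TTCGAA (forms of the cell cycle genes homology region, CHR, which binds the MuvB complexes), and as TTTGGCGC or TTTCGCGC (forms of the E2F site). Shown first are the 250 bases upstream of the start of CDCA8, CENPA, INCENP and BUB1B, which fell, and of NSL1, which rose, 5' to 3' on the gene's strand with motif matches in capitals. They are examples and do not represent all 37 windows, since some genes that fell hold no CHR form. CDCA8 lies at chr1:37692266-37692515, plus strand, CENPA at chr2:26785806-26786055, plus strand, INCENP at chr11:62123761-62124010, plus strand, BUB1B at chr15:40160819-40161068, plus strand, and NSL1 at chr1:212791778-212792027, minus strand.

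CDCA8: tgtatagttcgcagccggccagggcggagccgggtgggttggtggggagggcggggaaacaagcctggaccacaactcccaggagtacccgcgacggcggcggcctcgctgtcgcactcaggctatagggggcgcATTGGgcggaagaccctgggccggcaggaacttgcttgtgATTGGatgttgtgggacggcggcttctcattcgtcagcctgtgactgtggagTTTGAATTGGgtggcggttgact
CENPA: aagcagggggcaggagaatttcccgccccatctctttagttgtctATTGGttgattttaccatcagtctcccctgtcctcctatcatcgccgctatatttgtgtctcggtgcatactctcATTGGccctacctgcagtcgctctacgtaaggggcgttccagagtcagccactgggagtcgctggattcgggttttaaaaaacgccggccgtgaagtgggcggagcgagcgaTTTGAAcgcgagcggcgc
INCENP: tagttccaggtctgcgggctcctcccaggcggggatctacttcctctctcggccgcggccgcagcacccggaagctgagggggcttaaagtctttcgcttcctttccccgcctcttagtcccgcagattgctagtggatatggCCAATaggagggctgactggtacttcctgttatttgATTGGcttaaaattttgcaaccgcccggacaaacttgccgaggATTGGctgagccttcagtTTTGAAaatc
BUB1B: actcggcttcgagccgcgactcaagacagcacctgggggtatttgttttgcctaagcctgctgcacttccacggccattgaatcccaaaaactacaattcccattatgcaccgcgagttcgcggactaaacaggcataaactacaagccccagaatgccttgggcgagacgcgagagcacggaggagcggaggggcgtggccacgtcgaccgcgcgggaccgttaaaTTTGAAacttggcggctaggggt
NSL1: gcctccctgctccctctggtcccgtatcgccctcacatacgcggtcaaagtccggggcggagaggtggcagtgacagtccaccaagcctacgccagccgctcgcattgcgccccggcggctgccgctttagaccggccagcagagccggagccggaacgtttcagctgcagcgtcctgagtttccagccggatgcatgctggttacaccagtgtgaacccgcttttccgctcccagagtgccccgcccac

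In the first 4 windows a CHR form starts 10 to 23 bases before the start site: at 23 in CDCA8 and BUB1B, 18 in CENPA and 10 in INCENP. CDCA8 and INCENP carry 3 CCAAT boxes and CENPA carries 2, most of them read as ATTGG on the strand shown, and in CDCA8 the CHR form overlaps a CCAAT box. The BUB1B window holds no CCAAT and the NSL1 window none of the motifs. A CHR form was present in 22 of the 37 windows (59.5%), against 16.8% of all 27305 genes with a window and 11.4% of the 10106 of them that were tested on the array. A CCAAT box was present in 26 of 37 (70.3%), against 35.6% and 36.2%, and both motifs in 16 (43.2%), against 6.63% and 4.83%. An exact E2F form was found in 2, CENPU and OIP5 (5.41%, against 1.16% and 1.9%). Of the 24 CHR matches 20 lay within 50 bases of the start on either side. The windows hold 300 bases, and the same count was not made over all genes. Among the 18 genes with a window that fell, 14 held a CHR form and 15 a CCAAT box, and among the 19 others 8 and 11 did, a split that was not tested. These are letter matches in a window, which do not show that a factor bound there, and genes such as NUF2 and SKA3, which hold a CHR form, did not pass. AURKB, CENPQ, CENPU and ZWILCH fell with no CHR form in their windows.

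**Figure D2:**
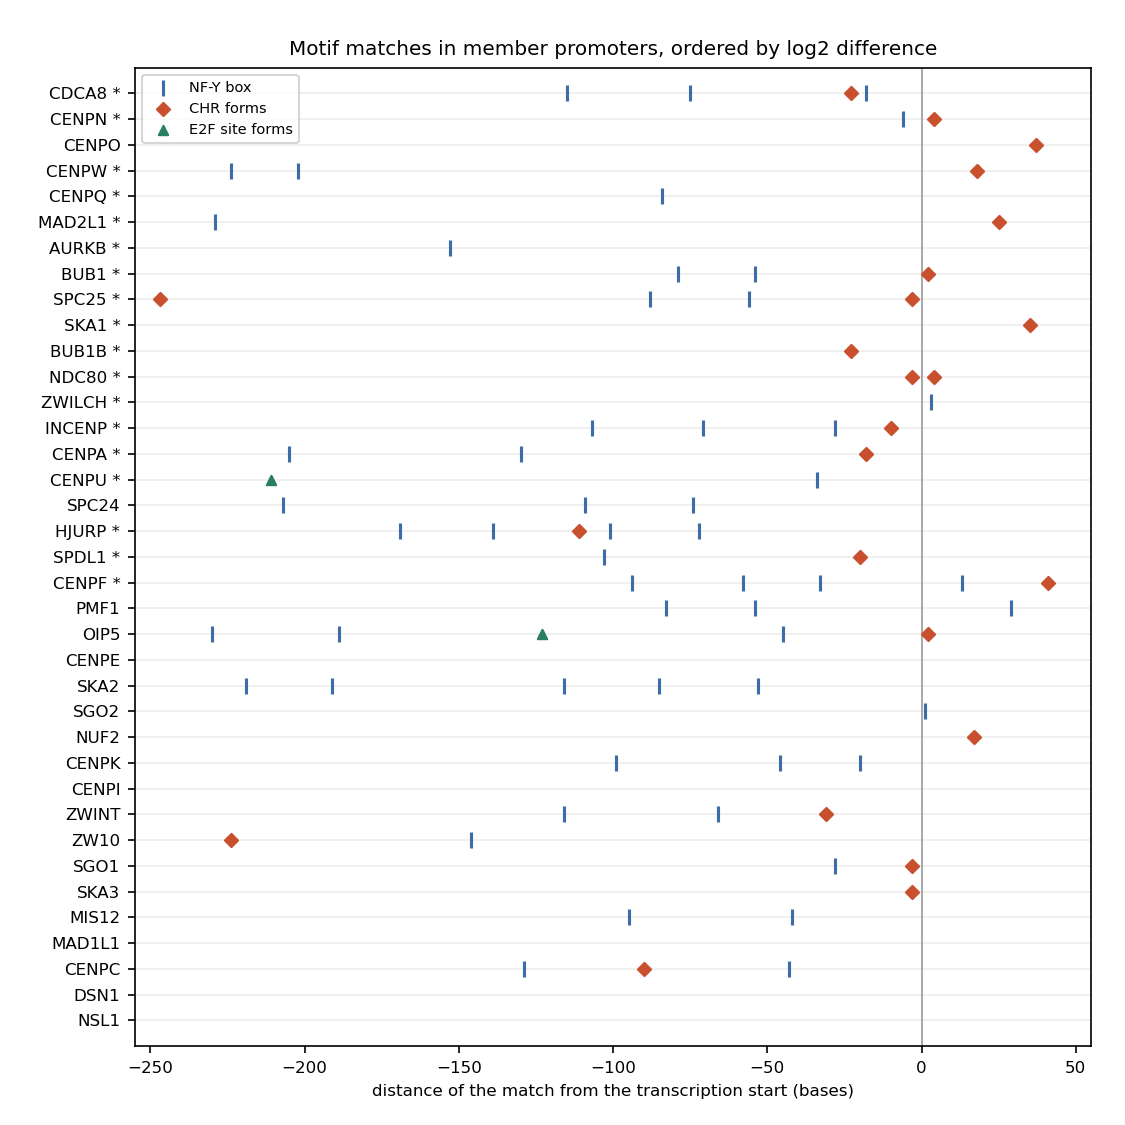
Positions of motif matches relative to the transcription start (horizontal axis, bases) in the promoter windows of 37 genes, ordered from the lowest log2 difference at the top; blue bars are NF-Y boxes (CCAAT), orange-red diamonds CHR forms, green triangles E2F forms, and asterisks mark genes that fell. Most CHR forms stand close to the start, 20 of 24 within 50 bases, a count not made over all genes.

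The chromosomal passenger complex was lower throughout: all 4 members fell, with a median log2 difference of -0.75. CDCA8 (borealin), which targets the complex to centromeres, read 278.6 and 308.3 with control siRNA and 122.4 and 136.9 after TET1 siRNA. Both TET1 siRNA values were under every control value, at 44.2% of the control mean. The log2 difference was -1.09 (SE 0.12, limma adjusted p = 8.29e-05), and only 0.759% of genes lay as low or lower. BIRC5 (survivin), which reads the histone mark that brings the complex to the centromere, went from 833.5 and 842.2 to 406.1 and 454.9. The control pair differed little and the TET1 siRNA pair lay near 51.4% of it (log2 difference -0.94, SE 0.086, adjusted p = 3.41e-05). AURKB, the kinase Aurora B, read 264.6 and 282.2 against 171.9 and 186.1, and INCENP, the scaffold that activates it, read 116.8 and 110.5 against 75 and 79.5. Neither gene's groups overlapped, and the log2 differences were -0.57 (SE 0.11, adjusted p = 0.00306) and -0.48 (SE 0.14, adjusted p = 0.0321). INCENP was close to the threshold and passed in 7 of 14 alternatives that kept variance shrinkage and set no minimum fold, whereas BIRC5 passed in 14 of 14 and CDCA8 in 13 of 13.

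In the spindle checkpoint 3 of 6 genes fell, none rose and 3 did not pass, with a median of -0.35. MAD2L1, the core inhibitor of CDC20, read 1672.7 and 1537.4 with control siRNA and 1089.5 and 1027.6 after TET1 siRNA. Both TET1 siRNA arrays were lower, at 66.0% of control (log2 difference -0.59, SE 0.074, adjusted p = 2.41e-04). The kinase BUB1, which marks centromeric chromatin, read 632.9 and 643.5 against 408.6 and 446.1, and its pseudokinase relative BUB1B (BubR1), part of the mitotic checkpoint complex, read 679.5 and 617.1 against 428.3 and 462.9. The groups did not overlap for either gene, with log2 differences of -0.56 (SE 0.086, adjusted p = 8.38e-04) and -0.52 (SE 0.089, adjusted p = 0.0016). The remaining checkpoint genes gave no call. TTK, the kinase MPS1 that starts the signal, read 514.2 and 505.6 against 468.9 and 426.7. Its TET1 siRNA arrays were lower without overlap, but the log2 difference of -0.18 did not pass (adjusted p = 0.17, 95% interval -0.38 to 0.01). BUB3, the adaptor that binds BUB1 and BUB1B, read 4028.5 and 4011.2 against 4288.3 and 4570.4, so that both TET1 siRNA arrays were higher, by 0.14 (SE 0.061, adjusted p = 0.134, 95% interval 0.0046 to 0.27). MAD1L1, the partner of MAD2L1 at kinetochores, had a log2 difference of 0.08 (adjusted p = 0.79, 95% interval -0.29 to 0.46) and overlapping groups.

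The inner centromere and CCAN genes were split. Of 12, 6 fell, none rose and 6 did not pass, with a median of -0.46. CENPH, of the CENP-H/I/K group of the network, had the lowest difference of all 45 genes. It read 292.7 and 313.3 with control siRNA and 100.8 and 123.4 after TET1 siRNA. The TET1 siRNA arrays held 37.0% of the control signal, a log2 difference of -1.32 (SE 0.12, adjusted p = 4.02e-05), which ranked 33 from the lowest among all genes. This gene has 1 probe set, of the _x_at kind in which some probes also match other transcripts, so no second reading of it was had. Its complex partners gave no call: CENPI read 40.1 and 35 against 31.7 and 34.2 (log2 difference -0.13, 95% interval -0.56 to 0.30) and CENPK read 153.7 and 123.3 against 115.8 and 132.2 (-0.14, 95% interval -0.45 to 0.17), and neither passed. The groups overlapped for CENPK, and the TET1 siRNA arrays of CENPI were only just under its controls.

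CENPN, which recognises CENP-A nucleosomes, fell in each of its 3 probe sets above the filter. The brightest read 581.7 and 570.3 against 334.4 and 326.2, a log2 difference of -0.77 (SE 0.086, adjusted p = 1.06e-04). The next read 321.5 and 272.2 against 53.3 and 53.4, and the third 124 and 100.6 against 31.1 and 30.4. Those dimmer probe sets therefore kept 18.0% and 27.4% of their control signal, against 57.3% for the brightest, with log2 differences of -2.17 and -1.45 in the fit over single probe sets. CENPL, the partner of CENPN in the network, showed no call, with values of 113.2 and 103.6 against 93.6 and 107.8 (log2 difference -0.09, 95% interval -0.40 to 0.22).

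CENPW, a histone-fold subunit, read 725.4 and 719.1 against 399.1 and 481.3, with no overlap and a log2 difference of -0.70 (SE 0.097, adjusted p = 4.59e-04). CENPQ and CENPU, which sit in the same sub-complex with CENP-O, fell by 0.63 and 0.45 (adjusted p = 0.00383 and 0.00759), from 205.3 and 181.1 to 121.4 and 117.1 and from 469.6 and 462.5 to 309.4 and 364.8. CENPO was noisy. It read 40.1 and 51.8 against 10.8 and 35.4, so the TET1 siRNA arrays were lower but far apart from each other, and the log2 difference of -0.73 (SE 0.29) did not pass (adjusted p = 0.0938). CENPA, the centromeric histone itself, read 260.8 and 221.1 against 162.1 and 177. The groups did not overlap and the difference was -0.47 (SE 0.12, adjusted p = 0.0163); it passed in 9 of 13 such alternatives. CENPC, the protein that links CENP-A nucleosomes to the outer kinetochore, did not pass at 0.12 (adjusted p = 0.584, 95% interval -0.17 to 0.40), although its values of 109.3 and 112 against 120.6 and 122.2 did not overlap. CENPM, a small CCAN subunit, had overlapping groups and a difference of -0.04.

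Of the genes that load CENP-A, 1 of 3 fell. HJURP, the CENP-A chaperone, read 289 and 303.5 against 204.5 and 226.8. Both TET1 siRNA arrays were lower (log2 difference -0.43, SE 0.10, adjusted p = 0.0123). OIP5, a subunit of the MIS18 complex that prepares the centromere for loading, read 288.9 and 285.2 against 212.2 and 253.7 and did not pass (-0.29, adjusted p = 0.0884). MIS18A, of the same complex, read 224.5 and 208.9 against 234.1 and 204.2, with overlap and a difference of 0.01 (95% interval -0.24 to 0.26).

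Among the microtubule-binding and linker complexes, the counts for NDC80 and MIS12 were as follows. In the NDC80 complex 2 of 4 fell, and in all 4 both TET1 siRNA arrays were under both controls, as in 28.2% of all genes. NDC80 read 227.1 and 260.6 against 167.5 and 172.6 (log2 difference -0.48, SE 0.11, adjusted p = 0.0111), and SPC25 read 268.5 and 260.3 against 163.8 and 186.5 (-0.56, SE 0.11, adjusted p = 0.00431). SPC24, which pairs with SPC25, was of like size at -0.43 but dimmer, at 78.1 and 79.2 against 50.3 and 58.2, and did not pass (SE 0.16, adjusted p = 0.0791). NUF2, which pairs with NDC80, read 317.8 and 325.7 against 278.2 and 285. Its difference was -0.18 (SE 0.095, adjusted p = 0.205). In the MIS12 complex none fell and the median was 0.14. NSL1 was the member that rose: 466.3 and 456.4 with control siRNA and 541.8 and 572.8 after TET1 siRNA, a difference of 0.26 (SE 0.084, adjusted p = 0.0441). That call was weak, since the same probe set had an adjusted p of 0.0589 among all probe sets, and the value was -0.03 (adjusted p = 0.941) when _x_at and _s_at probe sets were left out. DSN1 and MIS12 were at 0.21 and 0.07 with overlapping groups, and PMF1 read 169.1 and 172.8 against 140.9 and 127.5 (-0.32, adjusted p = 0.0848). Whether the MIS12 and NDC80 complexes differ from each other in their response was not tested.

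The SKA complex helps NDC80 hold on to depolymerising microtubules, and 1 of its 3 genes fell. SKA1 read 88.8 and 83.9 against 57.4 and 51.8 (log2 difference -0.54, SE 0.16, adjusted p = 0.0311). SKA2 read 1046.1 and 872.3 against 831.1 and 752.7. These groups did not overlap, but the difference of -0.27 did not pass (adjusted p = 0.0683). The dimmer probe set of SKA2 read 410.3 and 380.8 against 353.2 and 388.9, with overlap, and did not pass either (-0.09). SKA3 read 124.9 and 117.9 against 116 and 126.3 (-0.00, 95% interval -0.29 to 0.28).

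Of 7 genes of the fibrous corona and the RZZ complex, which carry dynein and checkpoint proteins, 3 fell and none rose. ZWILCH, an RZZ subunit, read 338.2 and 342.3 against 223.1 and 258.3 (log2 difference -0.48, SE 0.10, adjusted p = 0.00753). SPDL1 (Spindly), the dynein adaptor, read 320.2 and 360.4 against 249.9 and 254.4 (-0.41, SE 0.10, adjusted p = 0.0141). CENPF, a large corona protein, read 479.1 and 474.6 against 348.5 and 410.7 (-0.32, SE 0.098, adjusted p = 0.0372, and 0.0508 among all probe sets). All of these groups were without overlap. The kinesin CENPE was lower on both TET1 siRNA arrays, at 106.7 and 102.2 against 123.5 and 136.5, but did not pass (-0.28, adjusted p = 0.166). KNTC1 and ZW10, which complete the RZZ complex, had differences of -0.08 and -0.12, and ZWINT, which helps bring the complex to kinetochores, had -0.13; their groups overlapped. The shugoshins, which guard centromeric cohesion, did not pass: SGO2 read 447.1 and 403.4 against 357.5 and 378.9 (-0.20, adjusted p = 0.163), and SGO1 was dim, at 21.8 and 22.3 against 15.4 and 24.5.

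Probe sets gave a second reading for some genes. Of the 83 probe sets 73 lay above the filter, and tested by themselves 27 were lower (37.0%) and 1 was higher (1.37%), against 8.31% and 7.76% of all 27306 probe sets tested. Probe sets of one gene share their RNA and are not replicates. Of 16 genes with 2 or more probe sets above the filter, MAD2L1 and CENPN passed as lower in each of them. In 4, BIRC5, BUB1, CENPU and ZWILCH, some probe sets passed as lower and the rest did not pass, in 9 none passed, and in none were there calls in opposite directions. BIRC5 had differences of -0.94, -1.19, -1.13 and -0.54, the last from its dimmest probe set (adjusted p = 0.0735). BUB1 had -0.56 and -0.52 from bright probe sets and 0.40 from a dim one, which read 13.2 and 18.3 against 24.9 and 26.5 and did not pass (adjusted p = 0.262). The probe set that was higher belonged to BUB3, at 1335.1 and 1329.8 against 1547.5 and 1560.1 (0.22, adjusted p = 0.0493).

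**Figure D3:**
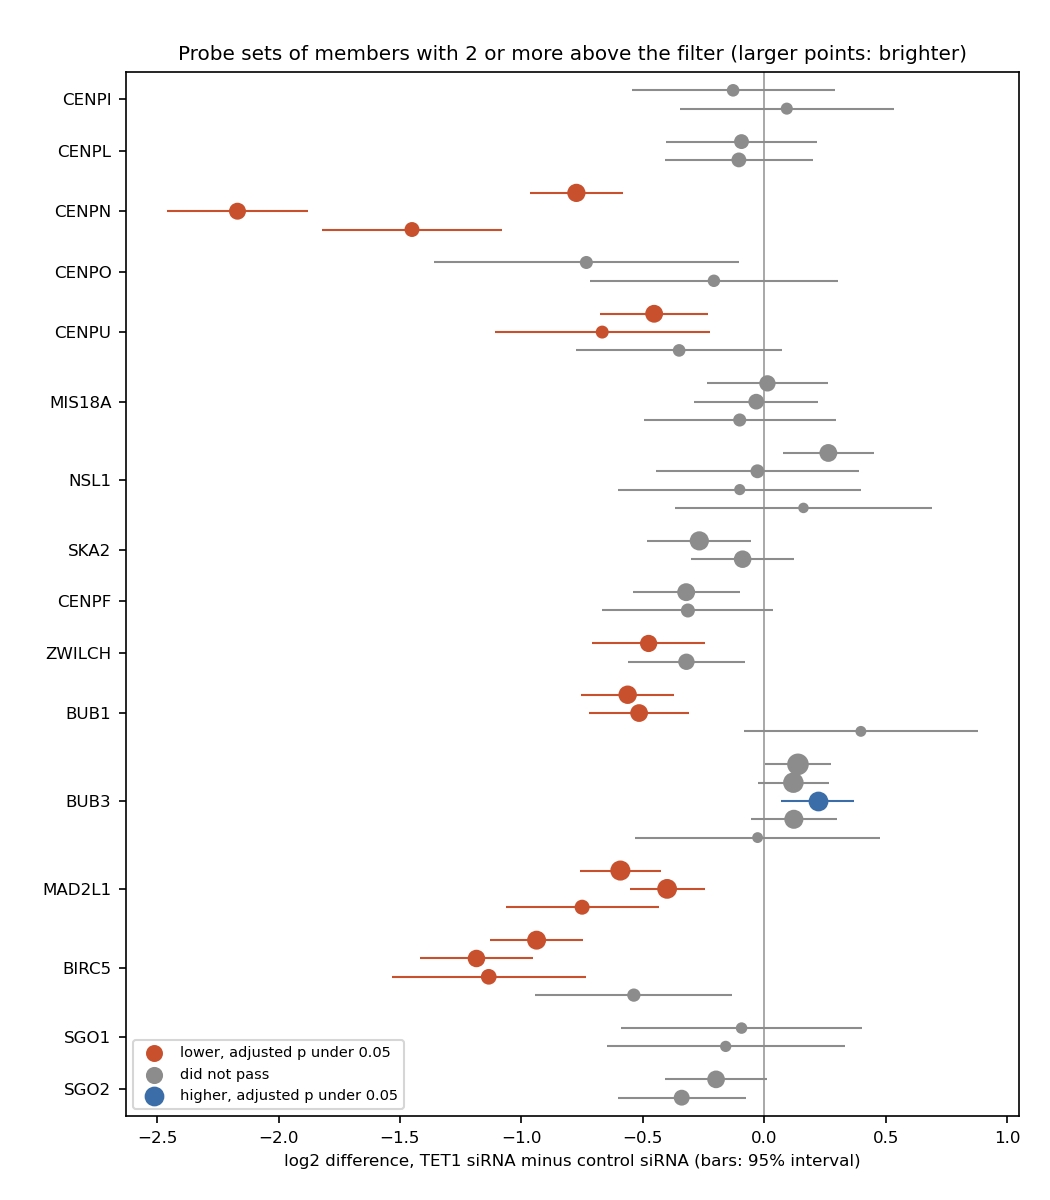
Log2 difference of each probe set (horizontal axis, TET1 siRNA minus control siRNA) with its 95% interval from limma, for the 16 genes with 2 or more probe sets above the filter; larger points are brighter with control siRNA, and colour gives the call. CENPN reaches -2.17 in one probe set and -0.77 in its brightest, and the BUB3 probe sets other than the dimmest lie between 0.12 and 0.22.

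Other genes of the same machinery were counted from lists of genes outside the 45. Of 22 further kinetochore and checkpoint genes on the array 7 fell (31.8%) and 1 rose (4.55%), with a median of -0.14, beside 10.6% and 11.2% of all genes. TRIP13, the ATPase that remodels MAD2, read 484.9 and 448.6 against 242.3 and 280.5 (-0.80). NDE1, a dynein regulator, fell by 0.75, the mitotic kinase PLK1 by 0.71 and the microtubule-binding CLASP2 by 0.62. Its paralogue CLASP1 was the gene that rose (0.50, adjusted p = 0.0206). Of 20 genes of the anaphase-promoting complex and separase, the machinery the checkpoint restrains, 10 fell (50%) and 1 rose (5%), with a median of -0.29. The list holds regulators of the complex and of separase as well as subunits, and the falls include both kinds. In 14 of the 20 both TET1 siRNA arrays lay under both controls. In 6, all of them subunits, they lay over both, against 28.2% and 30.9% of all genes. CDC27, a core subunit, read 605.6 and 628 against 345.9 and 316.5 (-0.87), the E2 enzyme UBE2S fell by 0.56, separase (ESPL1) by 0.47 and the co-activator CDC20 by 0.45, while the subunit ANAPC13 rose by 0.24. Of 23 cell cycle transcription factors and their partners 3 fell (13%) and 2 rose (8.7%), shares near those of all genes, with a median of -0.21. E2F8, a repressor of the E2F family, fell by 0.70, RBBP4, a subunit shared by MuvB complexes, by 0.65 and the E2F partner TFDP1 by 0.44. TFDP2 rose by 0.62 and the retinoblastoma gene RB1 by 0.57. FOXM1 and MYBL2, activators that work through CHR sites, had differences of -0.47 and -0.43 and did not pass (adjusted p = 0.0594 and 0.184). The MYBL2 groups overlapped. The MuvB subunits LIN9, LIN37, LIN52 and LIN54 did not pass either, at -0.23, -0.12, -0.335 and 0.22, and only the LIN52 groups did not overlap. FOXM1, MYBL2 and these LIN genes were named for their roles and not by the rule for list members.

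**Figure D4:**
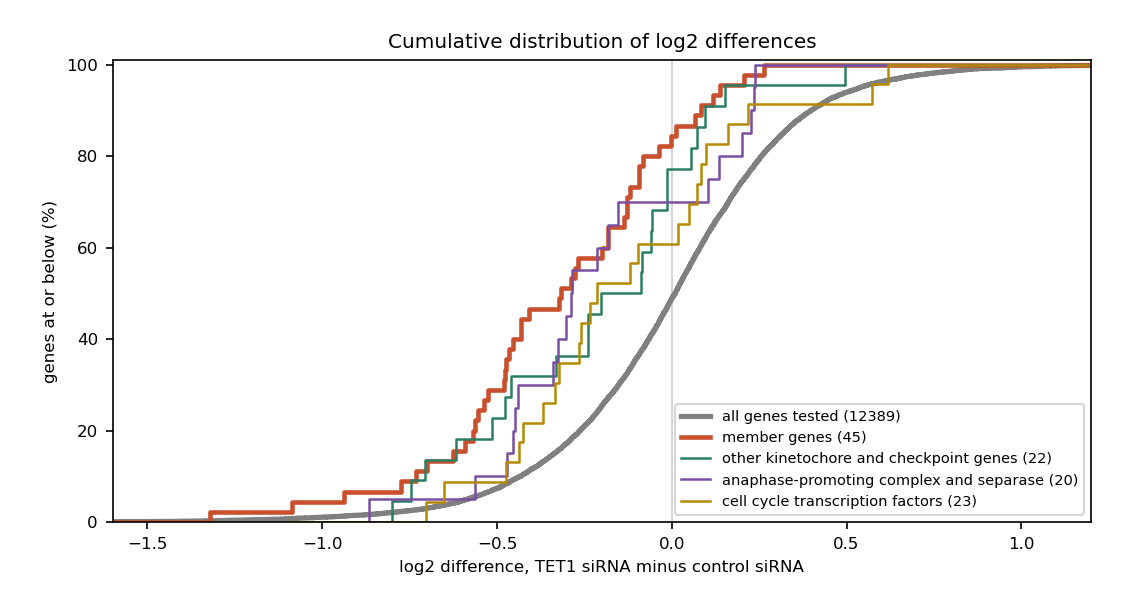
Cumulative share of genes (vertical axis, %) at or below each log2 difference (horizontal axis, TET1 siRNA minus control siRNA, shown from -1.6 to 1.2) for all 12389 genes tested, the 45 genes and the 3 further lists. The curve of the 45 genes lies to the left of that of all genes, with medians of -0.32 and 0.01.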

How the data were processed

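RNA of HCT116 cells was read on 1 Affymetrix array per sample, 2 with control siRNA and 2 after TET1 siRNA. Oligo(dT) priming and biotin-labelled cRNA were used, per the labels' protocols, which favours 3' ends of transcripts. The authors' deposited values are linear intensity readings, 1 for each probe set; every array has the same mean after trimming 2% at each end, and the sources used here do not name the software or background step. Global scaling hides a change in total mRNA, and the pseudocount of 16 understates changes of dim genes.

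Groups come from the sample titles. Of 54675 probe sets 62 controls were left out, 41091 had 1 symbol in the platform annotation, 1801 several and 11721 none; 41037 were matched by gene identifier to current symbols (RefSeq, GRCh38.p14). A gene was its probe set of highest mean signal, tested if its mean over the arrays, as log2, exceeded the median probe set (4.86, a signal of 13.1), which all 45 members met. Limma 3.58.1 in R 4.3.3 (eBayes with a variance trend, 2 residual and 9.24 prior degrees of freedom) compared the groups, two-sided, with Benjamini-Hochberg adjustment over all 12389 genes or, separately, 27306 probe sets. SEs and 95% intervals come from that fit, and their precision is limited by 2 arrays per group; an exact permutation test of 2 against 2 cannot give a p below 0.33. The script was run on values simulated from the fitted model with independent noise, which checks the code and not the calls made here.

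The members, the further gene lists, the motifs and the rule for naming genes were chosen with earlier results of these data known. All members could be named, and up to 4 genes past the threshold per direction of each further list. Replicate numbers were not treated as pairs in the main fit. Deviations of same-numbered arrays from their group means correlated at 0.0055, which cannot show whether the samples were handled in pairs. Promoters with several starts were read at the lowest coordinate. Of the 69 further genes listed, 65 had a probe set of their own. Figures were drawn with matplotlib 3.10.9.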

Additional observations from a re-analysis of the deposited data

How the results depend on the processing

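Among values of single genes under alternatives 582 kept their side of the threshold, 71 lost the call and 4 gained one (CENPO and SKA2). In 1 value a called gene reversed, NSL1 at -0.028 without _x_at and _s_at probe sets. The 582 did not all keep their direction, since some genes that did not pass changed sign. SKA3 did so in 4 alternatives, and CENPM and MIS18A in 3 each. The sign never changed in 33 members. Of the 20 genes that fell, 8 passed in each alternative that kept variance shrinkage and gave them a value, the 1.5-fold minimum aside: CENPH, CENPN, CENPQ, CENPW, SPC25, MAD2L1, BIRC5 and CDCA8. CENPH and CDCA8 had no value without _x_at and _s_at probe sets, and SPC25 is under the 1.5-fold minimum. Leaving out 1 array in turn gave 11 to 18 members lower and 0 higher, 18 to 25 member probe sets lower and 0 higher, 873 to 982 genes lower and 813 to 1159 higher over all genes, and 15 to 19 genes of the further lists lower and 2 to 4 higher. The TET1 transcript passed as lower in each alternative that gave it a value except without moderation (-1.28, adjusted p = 0.0964); it was not tested under the upper-quartile filter. Without moderation all counts were 0 (20 members lower and 2 higher, and 31 and 3 member probe sets, at an unadjusted p of 0.05; 1265 and 1414 genes; 23 and 3 of the further lists). Without the variance trend 11 members fell and 0 rose, 8 member probe sets were lower and 0 higher, 542 genes were lower and 442 higher, and 8 and 1 of the further lists. At 1.5-fold or more these were 7 and 0, 13 and 0, 537 and 429, and 7 and 1. With no filter 0 members and 0 member probe sets were higher, 854 genes were lower and 905 higher, and 2 of the further lists were higher. With the mean of all probe sets 0 members, 772 genes and 1 further gene were higher. Without _x_at and _s_at probe sets, where 36 members were tested, 13 fell and 0 rose, with 885 genes and 2 further genes higher. Quantile normalization gave 0 members and 0 member probe sets higher, a pseudocount of 1 gave 0 member probe sets higher, and the upper-quartile filter 2. With the replicate number as a block 22 members fell and 1 rose, 28 member probe sets were lower and 0 higher, and CENPO and SKA2 gained calls. Median centring moved the share of higher among all calls from 51.4% to 58.9%, and 40.0% of the members fell. The cause of these shifts was not tested. Without moderation the fit had 2 residual degrees of freedom. With no filter 19775 genes were tested and under the upper-quartile filter 7816, beside 12389 in the main fit.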

Other observations

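A probe set annotated to CENPA together with SLC35F6 stood outside the 83 because it names more than 1 gene. It read 406.8 and 394.7 with control siRNA and 255 and 299.9 after TET1 siRNA, a log2 difference of -0.51 (limma adjusted p = 0.00736), beside -0.47 for the probe set that names CENPA alone. The probe set shared by PMF1, PMF1-BGLAP and BGLAP was dim, at 19.2 and 15 against 21.9 and 28.7 (0.32, adjusted p = 0.386), and did not pass.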
